A study of Mus musculus with 4 samples.

Results

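Tead2, Tead4, Vgll3 and Vgll4 are the genes of the TEAD transcription factor family and its Vestigial-like (Vgll) cofactors that have a row in the authors' table of genes differing between Lats1/2-deleted and control mouse pylorus. They are 4 of 2701 listed genes. Of the 8 genes in both families these 4 were listed, against 20.6% of all tested genes. Whether the unlisted genes of the families were tested is not known, so the 2 shares are not strictly alike. The table is limited to genes with an adjusted p of at most 0.05, so the same contrast that is described here chose these 4 genes. Their deposited adjusted p-values were 0.0137 for Tead2, 0.00218 for Tead4, 0.0347 for Vgll3 and 0.0383 for Vgll4, which places both Vgll genes closer to the limit of the table than both TEAD genes. All 4 were higher in the knockout, a direction in which 8.81% of all tested genes were listed. The genes were thus selected on the authors' adjusted p in this contrast. Because that fixed that they would differ, the values below are a description and carry no test.

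RNA came from cryosections of the pyloric stomach of C57BL/6 mice, 2 libraries per genotype. Mice of both groups carried floxed Lats1 and floxed Lats2 (Lats1fl/fl;Lats2fl/fl) and were collected 8 weeks after tamoxifen. The control group (WT in the labels, without Cre) had these alleles alone. The other group (Lats1/2iΔLgr5, here Lats1/2 knockout, KO) also carried Lgr5-CreER, a tamoxifen-activated recombinase expressed under the Lgr5 locus, which is active in stem cells at the gland base. Deletion is thus expected only in those cells and their descendants, while sections hold the whole tissue. In such bulk samples a change in the number of cells of a type cannot be told apart from a change in RNA per cell. Age and sex are not stated in the sources used here, and the labels do not say whether the libraries of a group came from separate animals, so the spread between them may be partly technical.

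TEAD proteins bind DNA but activate transcription poorly on their own. They recruit the coactivators YAP and TAZ, which enter the nucleus when the Hippo kinases LATS1 and LATS2 no longer phosphorylate them. Vgll proteins bind TEAD through a short motif called the Tondu domain, on a surface that overlaps the one used by YAP and TAZ. VGLL4 is best known as a competitor that limits YAP-driven transcription and growth, including in gastric tumours, whereas VGLL3 has been studied as a TEAD partner in muscle, stromal and inflammatory settings.

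The upstream sequences of 3 of the genes are shown because they let the TEAD recognition motif be looked for at genes that were all higher in the knockout. RefSeq promoter entries (GRCm38.p6) were matched for Tead2, Vgll3 and Vgll4. Bases are in lower case, with a match to the TEAD core motif GGAATG, on either strand, in capitals. Vgll3 is read on the plus strand at chr16:65814939-65815188 and Vgll4 on the minus strand at chr6:114969204-114969453, each being the 250 bases before a RefSeq transcript start. Tead2 is read on the plus strand at chr7:45215542-45215752, where 211 bases precede the first GENCODE exon.
Vgll3: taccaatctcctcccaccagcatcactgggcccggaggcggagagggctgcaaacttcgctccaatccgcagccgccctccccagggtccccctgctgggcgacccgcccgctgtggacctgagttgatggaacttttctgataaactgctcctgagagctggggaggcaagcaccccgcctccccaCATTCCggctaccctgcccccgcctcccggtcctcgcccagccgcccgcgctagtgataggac
Vgll4: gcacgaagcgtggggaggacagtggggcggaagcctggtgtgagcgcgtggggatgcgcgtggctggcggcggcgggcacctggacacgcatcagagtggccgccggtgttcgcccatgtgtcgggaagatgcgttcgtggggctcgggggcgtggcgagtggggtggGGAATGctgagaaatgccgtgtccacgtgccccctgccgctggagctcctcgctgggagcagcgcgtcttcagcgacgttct
Tead2: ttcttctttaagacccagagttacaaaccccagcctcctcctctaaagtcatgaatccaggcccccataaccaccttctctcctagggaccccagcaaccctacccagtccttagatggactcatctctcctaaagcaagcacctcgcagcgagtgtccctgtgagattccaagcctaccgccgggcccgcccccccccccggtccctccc

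The Vgll3 window held the motif once, as CATTCC on the minus strand, with its first base 63 bases before the start. The Vgll4 window held it once, as GGAATG on the gene's own strand, with its first base 82 bases before the start. For Tead2 the search covered all 250 bases before the RefSeq start, of which 211 are shown, and found no copy. Among all 32851 promoter windows of this length in the table, 12.6% held GGAATG on either strand. The AP-1 motif TGANTCA, searched because AP-1 factors often bind beside TEAD, was present in 6.75% of all windows and in none of these 3, so no overlap between the motifs arose. The Vgll4 window lies inside the deposited gene span, which ends at 114969994, so it precedes an inner start. Vgll4 has further annotated starts in GENCODE, and those were not searched. The Vgll3 window ends before the start of this gene in GENCODE (65815257) and in the deposited span (65815633). The last 20 bases of the promoter entry were found in a GENCODE transcript for Vgll4, but not for Vgll3 or Tead2. A match of 6 letters is a description of the sequence and says nothing on whether TEAD is bound there.

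The targeted kinase gene was examined first. Lats1 stood at 2152 normalized counts (reads divided by the authors' size factor of each library) in WT 1, 1974 in WT 2, 942.5 in KO 1 and 1129 in KO 2. Both knockout libraries were below both controls. Lats2 was not among the listed genes. The listed genes held between 13413629 and 17689207 counts per library. A chi-square test compared counts between the 2 libraries of a group. Its statistic was 114 in WT and 108 in the knockout for each degree of freedom. The 2 libraries of each group thus differed beyond sampling noise, and libraries of different groups were not compared. The gastric secretory genes Gkn1, Gkn2, Tff1 and Muc5ac and the antral transcription factor gene Pdx1 were among the listed genes and had counts in every library. Of 14 gastric epithelial markers, 8 were listed (57.1%, against 20.6% of all tested genes), 7 lower (against 11.7% of all tested genes listed as lower) and 1 (Sst) higher in the knockout. Other defining markers, among them Gast, Muc6, Tff2 and Epcam, were not among the listed genes.

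Tead4 (ENSMUSG00000030353, chromosome 6, 128224288 to 128300823, minus strand, GRCm38) encodes a TEAD factor known from early embryonic lineage choice and muscle regeneration. Its level was 56.8 normalized counts in WT 1, 45.2 in WT 2, 138.5 in KO 1 and 184.5 in KO 2. Both knockout libraries were high, and the lower of them was 2.44 times the higher control. The mean was 51.0 ± 8.18 in WT and 161.5 ± 32.5 in the knockout (SD, n = 2 each), a 3.17-fold difference and a log2 fold change of 1.66 ± 0.37 (SE, edgeR). The raw counts behind these values were 45, 41, 153 and 236, so counting error alone leaves 95% exact Poisson intervals of 41.4 to 76.0 and 32.5 to 61.4 normalized counts in the WT libraries. These intervals overlap, and neither reaches the knockout intervals, which begin at 117 and 162. Such intervals cover counting error only.

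Tead2 (ENSMUSG00000030796, chromosome 7, 45215753 to 45233635, plus strand) encodes a TEAD factor known for high expression in early embryos and neural progenitors. Its level was 122 normalized counts in WT 1, 144.5 in WT 2, 241 in KO 1 and 321 in KO 2. The groups did not overlap, and KO 2 was again the highest library. The mean went from 133 ± 15.6 to 281 ± 56.8 (SD, n = 2), a 2.11-fold difference and a log2 fold change of 1.07 ± 0.29 (SE). In both TEAD genes KO 2 exceeded KO 1 by about the same factor, 1.33. Annotated exons of Tead2 share 13 bases with Cd37 on the opposite strand. Whether reads were counted by strand is not stated, so reads in that stretch cannot be assigned to either gene.

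Vgll4 (ENSMUSG00000030315, chromosome 6, 114860628 to 114969994, minus strand) was the most abundant of the 4 and, with all libraries, showed the smallest fold difference. Its level was 372 normalized counts in WT 1, 209.6 in WT 2, 572 in KO 1 and 553 in KO 2. The knockout libraries were nearly equal, while the control libraries were not: WT 1 was 1.78 times WT 2, and their counting intervals of 331 to 417 and 181 to 242 lie apart. The mean went from 291 ± 115 to 562 ± 13.9 (SD, n = 2), a 1.93-fold difference and a log2 fold change of 0.95 ± 0.32 (SE). The size of the rise therefore depends on the control chosen. Without WT 2 the log2 fold change was 0.60, and without WT 1 it was 1.42. Its place below Tead2 turned without WT 1, where Tead2 was at 0.96, and without KO 2, where Vgll4 was at 0.98 and Tead2 at 0.85.

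Vgll3 (ENSMUSG00000091243, chromosome 16, 65815633 to 65863057, plus strand) was the least abundant of the 4 and, with all libraries, showed the largest fold difference. Its level was 18.9 normalized counts in WT 1, 12.1 in WT 2, 39.8 in KO 1 and 104.7 in KO 2. Both knockout libraries lay above both controls, but KO 2 was 2.63 times KO 1. The mean went from 15.5 ± 4.81 to 72.3 ± 45.9 (SD, n = 2), a 4.65-fold difference and a log2 fold change of 2.22 ± 0.67 (SE). The raw counts were 15, 11, 44 and 134. The counting interval of KO 1, 29.0 to 53.5, begins below the upper end of that of WT 1, 10.6 to 31.2. Such an overlap does not by itself decide whether these 2 libraries differ. Without KO 2 the log2 fold change was 1.36, below the 1.44 of Tead4 in that setting, and without KO 1 it was 2.75. The authors' deposited table, whose fold changes are shrunken toward 0, gives Vgll3 a log2 fold change of 1.29, less than its 1.37 for Tead4, and gives 0.95 for Tead2 and 0.84 for Vgll4.

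**Figure D1:**
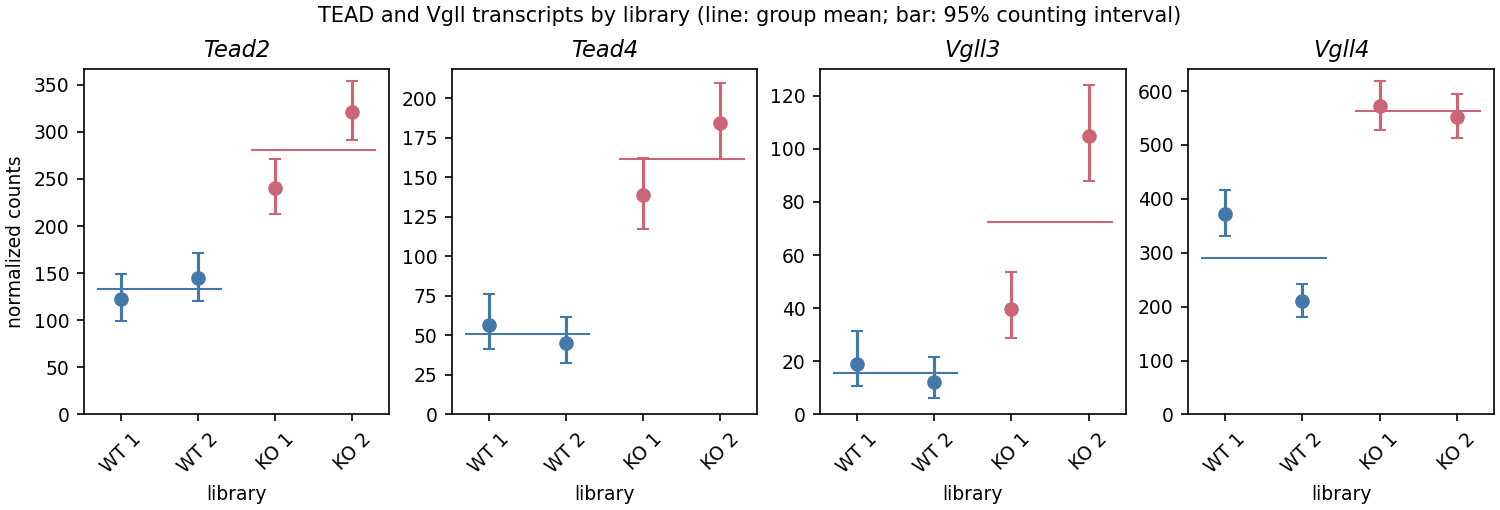
Normalized counts (y axis, linear from 0) of Tead2, Tead4, Vgll3 and Vgll4 in each library (x axis), with the group mean as a line and the 95% exact Poisson counting interval as a bar. Both knockout libraries lie above both WT libraries in all 4 panels; the WT libraries are far apart for Vgll4 (372 and 209.6) and the knockout libraries for Vgll3 (39.8 and 104.7).

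The groups failed to overlap in all 4 genes. This was also so for 42.9% of the listed genes with the knockout higher, that is for all 1158 listed rises, and for 57.1% with it lower, so separation is a property of the table and not of these genes. Of the genes the authors tested, inferred as 13137, 20.6% were listed in either direction and 8.81% were listed as higher. The edgeR quasi-likelihood test with Benjamini-Hochberg adjustment called 2699 of the listed genes (99.9%) with 42.8% called higher, which again follows from how the rows were selected. In every setting tried, including the omission of each library in turn and both other scalings, the 4 log2 fold changes stayed above 0. For genes listed as higher, whose groups do not overlap, no omitted library could turn the sign, and both other scalings shift every gene upward, so this is no sign of stability. The plot of fold changes by setting shows how far each one moved.

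**Figure D2:**
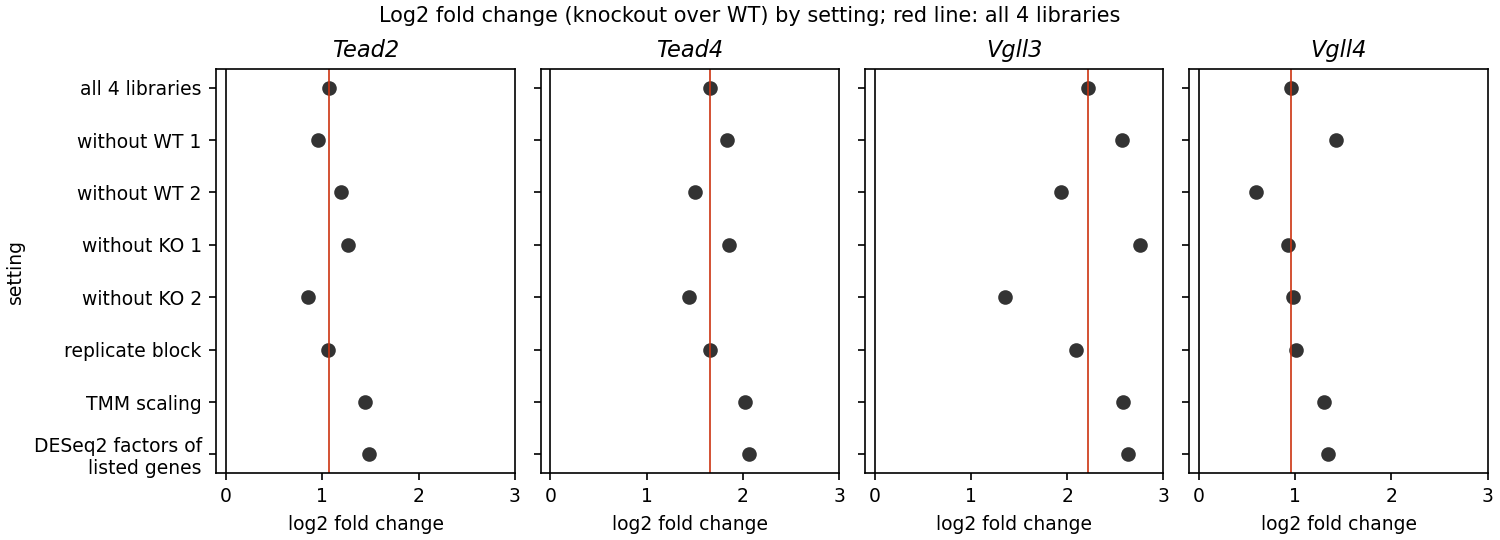
Log2 fold change of each gene (x axis, knockout over WT) with all 4 libraries, without each library in turn, with the replicate number as a block, and with TMM or DESeq2 size factors computed from the listed genes (y axis); the red line marks the value with all 4 libraries. Tead2 stays between 0.85 and 1.49, Tead4 between 1.44 and 2.07, Vgll4 between 0.60 and 1.42, and Vgll3, the widest, between 1.36 and 2.75.

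In a table limited by significance, genes with low counts are listed only at large fold changes, so each gene was set beside listed rises at a base mean within 1.5 times of its own. For Vgll3 there were 41 such genes, with a median log2 fold change of 2.34 and a lowest of 1.34, and 22 of them exceeded its 2.22. For Tead4, 47 of 136 such genes exceeded its 1.66, where the median was 1.56. For Tead2, 184 of 273 such genes had a larger value, and for Vgll4, 204 of 342. The sizes of the 4 rises were thus ordinary among listed genes of similar abundance. Over all listed rises the median log2 fold change was 1.09, and over all listed genes in both directions it was -0.50.

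**Figure D3:**
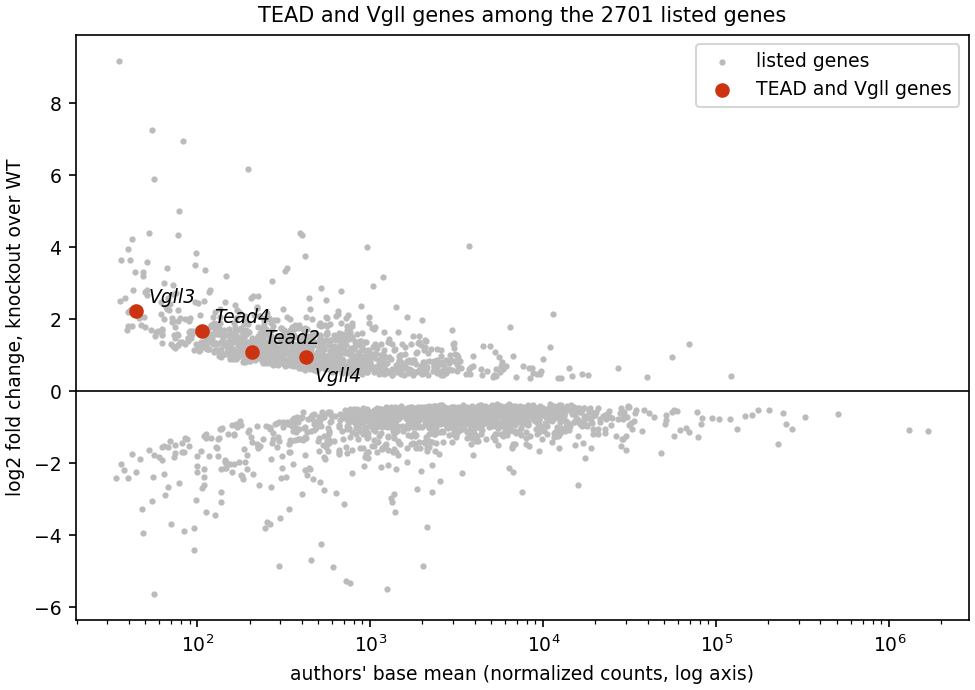
Log2 fold change (y axis, knockout over WT) against the authors' base mean (x axis, log scale, normalized counts) for all 2701 listed genes in grey and Tead2, Tead4, Vgll3 and Vgll4 in red. The band around 0 is empty because of the authors' threshold and widens toward low counts, where Vgll3 lies; Tead2, Tead4 and Vgll4 lie inside the main body of the rises.

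Levels of different genes were compared per kilobase of GENCODE M21 exon inside the deposited gene span, as normalized counts per kilobase. The order was the same in each group's mean, with Vgll4 highest at 53.9 ± 21.3 in WT and 104 ± 2.58 in the knockout (SD, n = 2). Tead2 followed at 27.9 ± 3.27 and 58.8 ± 11.9, then Tead4 at 14.2 ± 2.27 and 44.9 ± 9.03, and Vgll3 at 4.54 ± 1.41 and 21.1 ± 13.4. In the knockout the Tead2 range of 50.4 to 67.2 overlapped the Tead4 range of 38.5 to 51.3 across libraries, although Tead2 was above Tead4 within every library. The other neighbouring pairs did not overlap in either group. By ratio, the closest in WT were Vgll4 and Tead2, at 38.8 and 30.2 in WT 2. The Vgll3 value carries an added uncertainty of length: the deposited span of this gene is shorter than the GENCODE M21 gene (65815257 to 65866368), and holds 3417 of its 7104 exonic bases.

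Ratios between the genes within a library do not depend on how libraries are scaled. Tead4 per kilobase was 0.616 of Tead2 in WT 1, 0.416 in WT 2, 0.764 in KO 1 and 0.763 in KO 2. The ratio was higher in both knockout libraries than in either control, where it rests on 45 and 41 Tead4 reads. Tead4 relative to Vgll4 was 0.229 and 0.324 in WT and 0.363 and 0.501 in the knockout, again without overlap. Tead2 relative to Vgll4 was 0.371 and 0.778 in WT and 0.475 and 0.656 in the knockout, and here the groups overlapped, with Vgll4 itself far apart between the controls. Vgll3 relative to Vgll4 was 0.0803 and 0.0914 in WT and 0.110 and 0.299 in the knockout, so the higher ratio was mainly that of KO 2. Vgll3 relative to Tead4 was 0.351 and 0.282 in WT and 0.303 and 0.598 in the knockout, and the groups overlapped. The genes were selected on this contrast and rose by unequal amounts. How often ratios of other listed genes separate was not computed, so these separations are a description.

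The profiles of the 4 genes over the libraries were compared. Likeness was measured as the distance between log2(normalized count + 1) profiles centred on each gene's own mean, over 4 libraries. The profiles were not scaled, so the distance grows with a difference in fold change as well as in shape. The closest pair among them was Tead2 and Tead4 at 0.70, and the most distant was Vgll3 and Vgll4 at 1.44. Of 2570 other listed genes that qualified, 797 lay closer to Tead2 than Tead4 did, and 359 lay closer to Tead4 than Tead2 did. For Vgll3, 39 lay closer than its nearest family member Tead4, at 0.81, and 663 lay closer to Vgll4 than Tead4 did. These counts are not shares of the rises, since 1543 of the 2701 listed genes were lower in the knockout. The median distance of the 2570 genes was 1.62 from Tead2, 2.19 from Tead4, 2.75 from Vgll3 and 1.65 from Vgll4. Genes that qualified had a base mean of at least 50, above the 43.9 of Vgll3 itself.

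Nearest to Tead2 were Rtel1 (a telomere helicase, distance 0.09), Rcc1 (the nucleotide exchange factor of Ran, 0.09) and Aimp2 (a scaffold of the tRNA synthetase complex, 0.11). Nearest to Tead4 were Ccdc14 (0.07), Dkc1 (the pseudouridine synthase dyskerin, 0.07) and Utp20 (a factor of ribosomal subunit processing, 0.07). These 6 genes, like the TEAD genes, were highest in KO 2, a likeness on which they were chosen. Nearest to Vgll3 were Galnt15 (a mucin-type glycosyltransferase, 0.28), Cavin2 (a caveolar coat protein, 0.29) and Ccn3 (a matrix-associated CCN protein, 0.40), whose KO 2 values were also far above KO 1. Galnt15, for example, had 69.4 and 47.4 normalized counts in WT and 127 and 432 in the knockout. Nearest to Vgll4 were Lrig1 (a feedback inhibitor of growth factor receptors, 0.08), Usp46 (a deubiquitinase, 0.10) and Paip2b (a translational repressor, 0.12), all with WT 1 above WT 2. Lrig1 had 1190 and 653 normalized counts in WT and 1700 and 1731 in the knockout. All neighbours were chosen by likeness over these 4 libraries, so highs and lows shared with each gene follow from the choice. With 4 libraries and many genes at small distances, these neighbours are only a description.

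**Figure D4:**
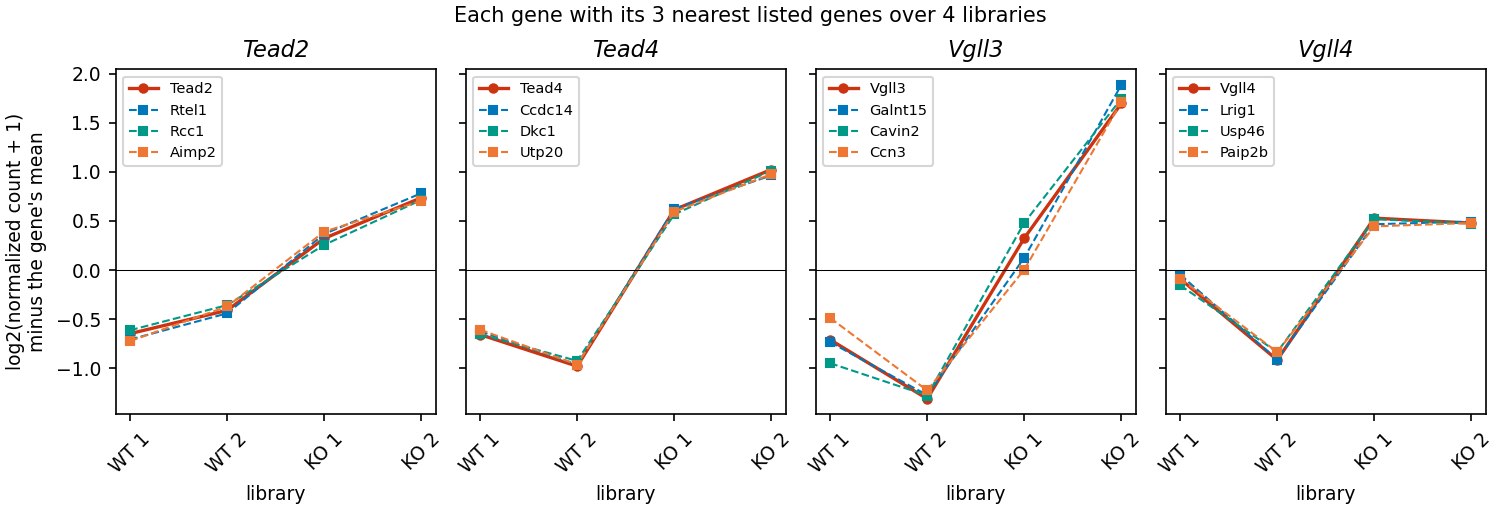
Log2(normalized count + 1) minus each gene's own mean (y axis) in the 4 libraries (x axis) for Tead2, Tead4, Vgll3 and Vgll4, each with its 3 nearest listed genes; lines only join the values of a gene. Vgll3 and its neighbours rise most in KO 2, whereas Vgll4 and its neighbours have equal knockout libraries and a low WT 2.

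Other genes of the pathway were taken from fixed lists. The coactivator genes Yap1 and Wwtr1 were looked up and were not among the listed genes, and neither were Tead1, Tead3, Vgll1 and Vgll2. Of 7 genes of the kinase core, Lats1 was listed (14.3%, against 20.6% of all tested genes), lower in the knockout. Of 33 upstream regulators, 9 were listed (27.3%, against 20.6% of all tested genes), 6 higher and 3 lower, and their median log2 fold change was 0.91. Ajuba, whose LIM protein binds LATS kinases, had 68.1 and 55.2 normalized counts in WT and 404 and 374 in the knockout. Ptpn14, which encodes a phosphatase that binds YAP, had 188 and 121 in WT and 478 and 494 in the knockout. Wwc2 (a KIBRA relative that promotes LATS activity) rose by 0.96 ± 0.17 and Csnk1e (a casein kinase) by 0.91 ± 0.21 on the log2 scale (SE, edgeR). The falls were in Fat4, Taok3 and Strn3.

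Of 22 genes widely used as YAP/TAZ-TEAD targets, 7 were listed (31.8%), 4 higher and 3 lower, with a median log2 fold change of 1.02; Ptpn14 and Amotl2 are in both lists. Ccn2, a secreted matrix-associated protein and the best known TEAD target, had 78.2 and 67.3 normalized counts in WT and 341 and 397 in the knockout, a log2 fold change of 2.34 ± 0.27 (SE, edgeR). Amotl2, which encodes an angiomotin that holds YAP at junctions, rose by 1.02 ± 0.25. Gadd45a, a stress and growth arrest gene, had 515 and 652 in WT and 292.5 and 163 in the knockout. Of the 7 AP-1 subunit genes Fosl2 was listed (14.3%, against 20.6% of all tested genes). It was lower in the knockout, with a log2 fold change of -0.64 ± 0.15. The upstream regulator and target lists thus held rises and falls, and their listed shares were 1.33 and 1.55 times that of all tested genes. The share of a list counts all its genes, since which unlisted genes were tested is not known. The 2 kinds of share are therefore not strictly alike.

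**Figure D5:**
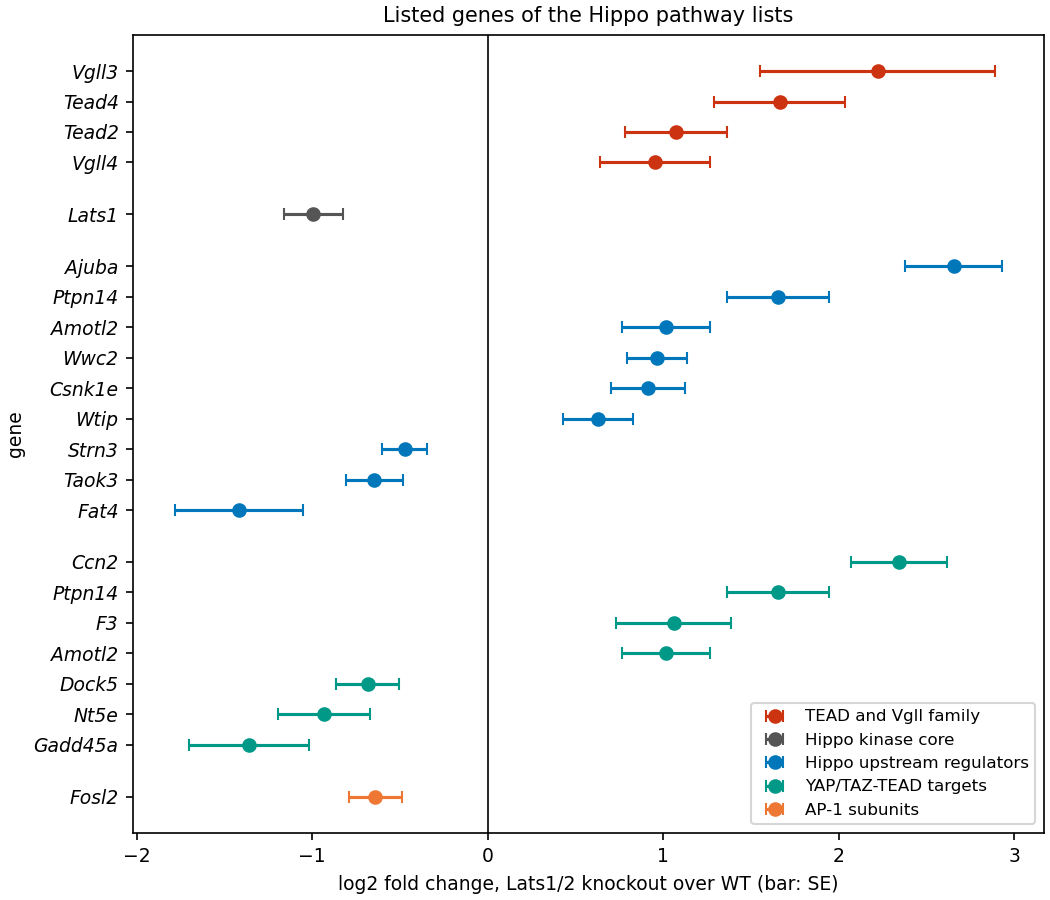
Log2 fold change (x axis, knockout over WT, bar: SE from edgeR) of every listed gene in 5 lists (y axis, colour by list). Vgll3, Tead4, Tead2 and Vgll4 lie right of 0 between Ajuba at 2.66 and Wtip at 0.63, while the regulators Strn3, Taok3 and Fat4, the targets Dock5, Nt5e and Gadd45a, the AP-1 gene Fosl2 and the deleted Lats1 lie left of 0.

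The proliferation and cell type lists are given beside the 4 rises, to be read against the 20.6% of all tested genes that were listed. Their shares count all genes of a list, tested or not, so untested genes lower them. Of 20 proliferation genes, 19 were listed (95%) and all were higher; their median log2 fold change was 1.35 and their summed level 11785 to 17527 normalized counts in WT and 32910 to 37047 in the knockout. Mcm7, a subunit of the replicative helicase, had 445.5 and 523 normalized counts in WT and 1621 and 1610 in the knockout. In these 19 genes WT 2 was above WT 1, as in Tead2, whereas Tead4, Vgll3 and Vgll4 had WT 1 above WT 2. The counting intervals of the WT libraries lay apart for Vgll4 alone. For Tead2 (99.3 to 149 and 121 to 171), Tead4 and Vgll3 (10.6 to 31.2 and 6.06 to 21.7) they overlapped, so that order may be counting error. Of 12 fibroblast markers, 3 were listed (25%, near the share of all tested genes), namely Col3a1, Col1a2 and Mmp2, all lower, with sums of 10068 to 13681 in WT and 6332 to 7414 in the knockout. No smooth muscle or skeletal muscle marker (8 genes each) was listed. Of 11 squamous forestomach markers, Pkp1 and Krt4 were listed (18.2%, below that share), both higher, with sums of 80.8 to 93.8 in WT and 256 to 296 in the knockout. Of 5 mesothelial markers 2 were listed (40.0%), Msln higher and Upk1b lower, with sums of 30.9 to 397.5 in WT and 610 to 915 in the knockout. Of 14 immune markers only Cd14 was listed (7.14%, below that share), higher, with 219.5 to 249.9 normalized counts in WT and 563.5 to 570.4 in the knockout. Of 9 endothelial markers Kdr was listed (11.1%), lower, at 462 to 698 in WT and 334 to 338 in the knockout. Of 6 adipocyte markers Cidec and Pparg were listed (33.3%), both lower, with sums of 9736 to 12955 in WT and 5240 to 5411 in the knockout. Most of that sum was Pparg, at 7339 and 9522 in WT. The markers Adipoq, Plin1, Lep and Fabp4 were not among the listed genes. No listed marker was at 0 in any library. The part of these cell types in the TEAD and Vgll values was not tested.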

How the data were processed

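RNA-seq counts of 4 libraries were used. TopHat2 2.1.1 and HTSeq, with DESeq2 and build GRCm38, are named in the submitters' processing notes; other settings are not stated. Per the file headers, the deposited table holds raw counts, a base mean (a signal: the mean of normalized counts), a log2 fold change, its standard error, a score (the Wald statistic), and p-values with adjusted p-values. The largest adjusted p is 0.05. The deposited log2 fold changes are shrunken (slope 0.775 against the log2 ratios of group means).

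The authors' size factors were recovered from base means and counts (0.792, 0.907, 1.10 and 1.28; base means were rebuilt within 0.0119%). Fold changes and SE are from edgeR 4.0.16 quasi-likelihood fits of all listed genes with these factors and genotype as the factor, without a low-count filter; the fit was tested on simulated data. TMM and DESeq2 1.42.0 factors, computed from the listed genes alone, cannot be centred on unchanged genes and served as alternatives, as did a DESeq2 fit, filterByExpr, a replicate block and omission of each library. Symbols from GENCODE M21 matched 2698 IDs, and 1 was added to deposited starts. The number of tested genes was inferred from p and adjusted p (quartiles 13125 and 13150). Shares of gene and marker lists are over all genes of a list, whether tested or not. The genes, lists and tests were chosen with earlier results of these data known. Named are the 4 genes, the 4 lowest deposited adjusted p-values in each list, and the 3 nearest profiles per gene at a base mean of at least 50; Fat4, Taok3, Strn3, Wtip, Dock5, Nt5e and the markers are named as listed members outside this rule.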

Additional observations from a re-analysis of the deposited data

How the results depend on the processing

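Directions of the 4 genes were the same in every setting run, which their selection largely fixed. TMM scaling shifted all log2 fold changes up by 0.36 and DESeq2 factors of the listed genes by 0.41: Tead2 went from 1.07 to 1.44 and 1.49, and Tead4 from 1.66 to 2.02 and 2.07, while genes called lower went from 1542 to 491 and 433 and genes called higher were 1157 in each. Without 1 library in turn, the log2 fold change ranged from 0.85 to 1.27 for Tead2, from 1.44 to 1.85 for Tead4, from 1.36 (without KO 2) to 2.75 for Vgll3 and from 0.60 (without WT 2) to 1.42 for Vgll4; edgeR calls ranged from 4 to 1038 higher and from 1 to 1416 lower, the lowest without KO 2, and were 627 and 876 without KO 1. The cause was not tested. The replicate numbers are shared by the groups only as numbers, and the deviations of same-numbered libraries from their group means correlated weakly and negatively (r = -0.16 across genes, which are not independent). With the replicate number as a block, the log2 fold changes were 1.06, 1.66, 2.09 and 1.01 for Tead2, Tead4, Vgll3 and Vgll4, and 1086 genes were called higher and 1452 lower; crossing the numbers, an alternative added after seeing the data, gave 1142 and 1519. The filter left 2700 genes and all 4 TEAD and Vgll genes. Depth limits Vgll3 most, at 11 to 134 reads per library.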
